A study of Mus musculus with 4 samples.

Results

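Genes of MAP kinase, PI3K and protein phosphatase signalling were compared between eosinophils of the pleural cavity and eosinophils of the bone marrow. They were chosen by symbol alone. A gene belonged here when its symbol in the deposited table began with Mapk, Map2k, Map3k, Map4k, Dusp, Ptpn, Ptpr, Prkc, Prka, Camk, Pik3, Inpp or Akt and a digit, and 73 of the 5807 genes of the table did. In the mouse annotation 184 protein-coding genes bear such names, and the 111 that the table does not list have no value here. Both groups were wild-type (WT) mice that had been injected in the pleural space with LLC, a Lewis lung carcinoma line that grows in mice. Eosinophils were sorted early after the injection from pleural lavage fluid or from bone marrow of young adult mice, and 2 libraries were made per tissue. The methods name C57 BL/6 and BALB/C wild-type mice without saying which gave these cells, and the labels do not say how many animals entered a library. The bone marrow is called naive in the text of the study, whereas the labels and methods give LLC-injected mice. Bone marrow cells were enriched with F4/80 and sorted as CD45+SiglecF+SSChi, while pleural cavity cells were enriched with CD45 and sorted as SiglecF+SSChi cells with CD11b and F4/80, low or absent Gr1 and no CD11c, so the gate differs between the tissues along with the tissue itself.

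The table is the authors' list of differentially expressed genes. For each tissue it gives 1 mean read count. Without the values of the single libraries neither a replicate spread nor a test could be computed, so a difference below is a ratio of 2 means. The list was drawn from the same comparison, which means that each member had already been taken as different. For this list the study names cut-offs in P and in fold change. It reports far more genes lower than higher in the pleural cavity. By the ratios used below, 42.5% of listed genes were higher, scaled to the listed total or unscaled. With that scaling, 33.4% lay within 2-fold. The split reported by the study was thus not reproduced, and the sign of a gene here may differ from that in its comparison. The reason was not tested. Mean reads were divided by the total of the listed genes in the tissue and are given as RPM, the mean reads per 1000000 mean reads of listed genes. Log2 ratios divide the pleural cavity by the bone marrow value on that scale, and levels of different genes are set against each other per kilobase of the longest annotated transcript unless another length is named. Where an interval is given, it is a 95% exact interval for counting error only and leaves out the variation between mice.

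In MAP kinase cascades a MAP3K phosphorylates a MAP2K, which phosphorylates a MAP kinase such as ERK, JNK or p38. Dual-specificity phosphatases remove both phosphates from the MAP kinase again, and several are transcribed in response to the very kinases they switch off. PI3K makes a membrane lipid that recruits Akt, and inositol phosphatases take that lipid apart. In granulocytes these routes run downstream of chemokine, cytokine and Fc receptors and take part in migration, survival and degranulation, with tyrosine phosphatases such as SHP-1 and CD45 setting their threshold.

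The mean reads of the listed genes summed to 15947438 for the pleural cavity and 11762543 for bone marrow, totals that leave out unlisted genes and are not library depths. Of 12 eosinophil markers 10 were listed, 3 of them higher in the pleural cavity (Siglecf, Ccr3 and Gata1) and 7 lower (the granule genes Prg2, Prg3, Epx, Ear1, Ear2 and Ear6, and Alox15), and their sum was 8116 RPM there against 95750 in bone marrow. Of 16 markers of neutrophils and their precursors 15 were lower, and Mmp9 was higher, at 2177 against 1195 RPM. The list came to 4479 RPM in the pleural cavity and 119009 in bone marrow. Most of the pleural cavity sum came from Mmp9 and Retnlg, the latter at 2127 RPM there against 12499 in bone marrow. Basophil and mast cell markers summed to 25.5 against 1111 RPM, T, NK and B cell markers to 32.4 against 910, and erythroid markers to 0.188 against 40.1, and none of 4 mesothelial markers was listed. Of the 12 T, NK and B cell markers 4 were listed, 3 lower (Nkg7, Cd3d and Vpreb1) and 1 higher, Ms4a1 at a log2 ratio of 1.34. Nkg7 alone made 887 RPM in bone marrow, and Ms4a1 made 23.0 in the pleural cavity. Macrophage and monocyte markers went both ways too. Of 8 listed, Marco, Adgre1, Csf1r, C1qb and C1qa were higher in the pleural cavity, by log2 ratios of 3.04, 2.26, 1.94, 1.77 and 0.92, and Ly6c2, Mrc1 and Lyz2 were lower, by -5.62, -1.27 and -1.24, with a sum of 9658 against 10844 RPM. Adgre1 encodes F4/80, which served in the bone marrow enrichment and in the pleural cavity gate. The part of these reads in the differences below was not tested, and in bulk samples fewer cells of a type and less RNA per cell cannot be told apart.

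Most of the signalling genes were higher in pleural cavity eosinophils. Of the 73 members 53 were higher and 20 lower, beside 42.5% higher among all listed genes. By over 2-fold, 22 members were higher, beside 16.0% of all listed genes, and 15 were lower, beside 50.5%. The median log2 ratio of the members was 0.63, and that of all listed genes -1.02. Read level bears on this comparison, since 9.75% of listed genes under 10 RPM were higher and 68.7% of those from 100 to 1000. Among listed genes with a mean of 100 reads or more in each tissue, 60.9% were higher and 39.1% lower, 18.0% and 27.8% by over 2-fold. Of the 58 members of that kind 50 were higher and 8 lower, 19 and 3 by over 2-fold. The median log2 ratio of these members was 0.74, beside 0.44 for the listed genes of that kind, a smaller gap than without the read limit. A mean of 0 reads in the pleural cavity was found for 5 members beside 12.0% of listed genes, and in bone marrow for no member beside 0.241%. Scaling bears on it too. The split of 22 higher and 15 lower by over 2-fold became 38 and 15 without scaling. Of all listed genes 30.5% were then higher and 43.2% lower by over 2-fold. With a total that left out the marker genes of the cell types above, the split was 15 and 18. Beside it stood 10.1% and 56.2% of all listed genes. That setting moved every log2 ratio by -0.34.

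**Figure D1:**
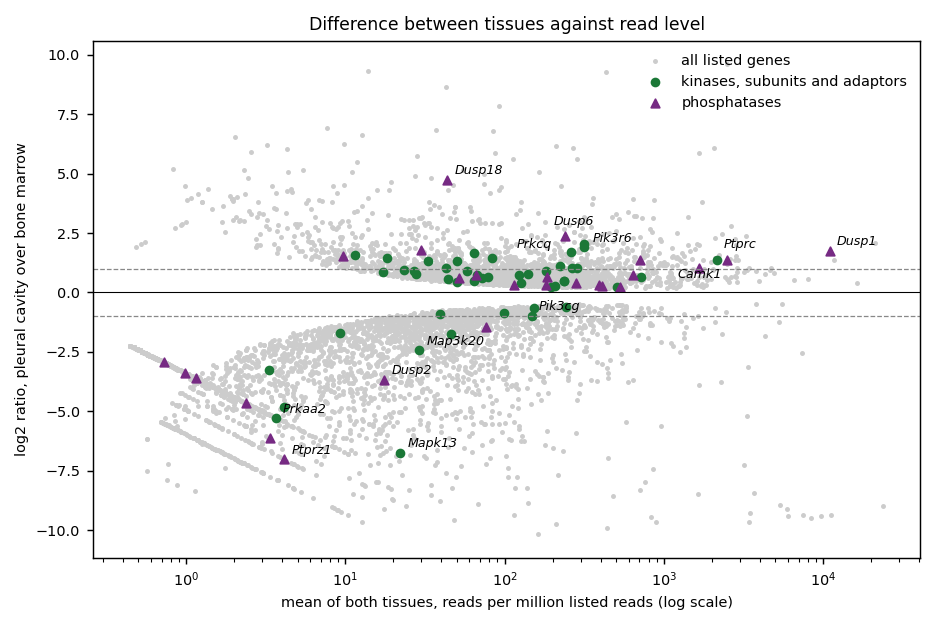
Log2 ratio of pleural cavity over bone marrow eosinophils against the mean level of both tissues in RPM, on a log axis. Grey points are all 5807 listed genes, and green circles are member kinases, subunits and adaptors. Purple triangles are members of the phosphatase classes, with inositol phosphatases and Ptprcap included. Dashed lines mark a 2-fold ratio. Members with over 100 RPM lie mostly above 0, and members under 10 RPM mostly below it.

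Summed over the 73 members, the level was 37912 RPM in the pleural cavity and 16483 in bone marrow, a ratio of 2.30. Dusp1 alone held 44.6% of the members' mean reads in the pleural cavity and 30.3% in bone marrow. Without Dusp1 the ratio of the sums was 1.83. Medians were positive in 13 of the 16 classes into which the members fall, and the exceptions were the receptor tyrosine phosphatases, the PI3K catalytic subunits and the class of Map4k1 alone. The counts of higher genes by class and by list below stand beside 42.5% higher among all listed genes. Among those with a mean of 100 reads or more in each tissue the share was 60.9%. Classes hold few genes, so such a count by itself does not set a class apart.

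**Figure D2:**
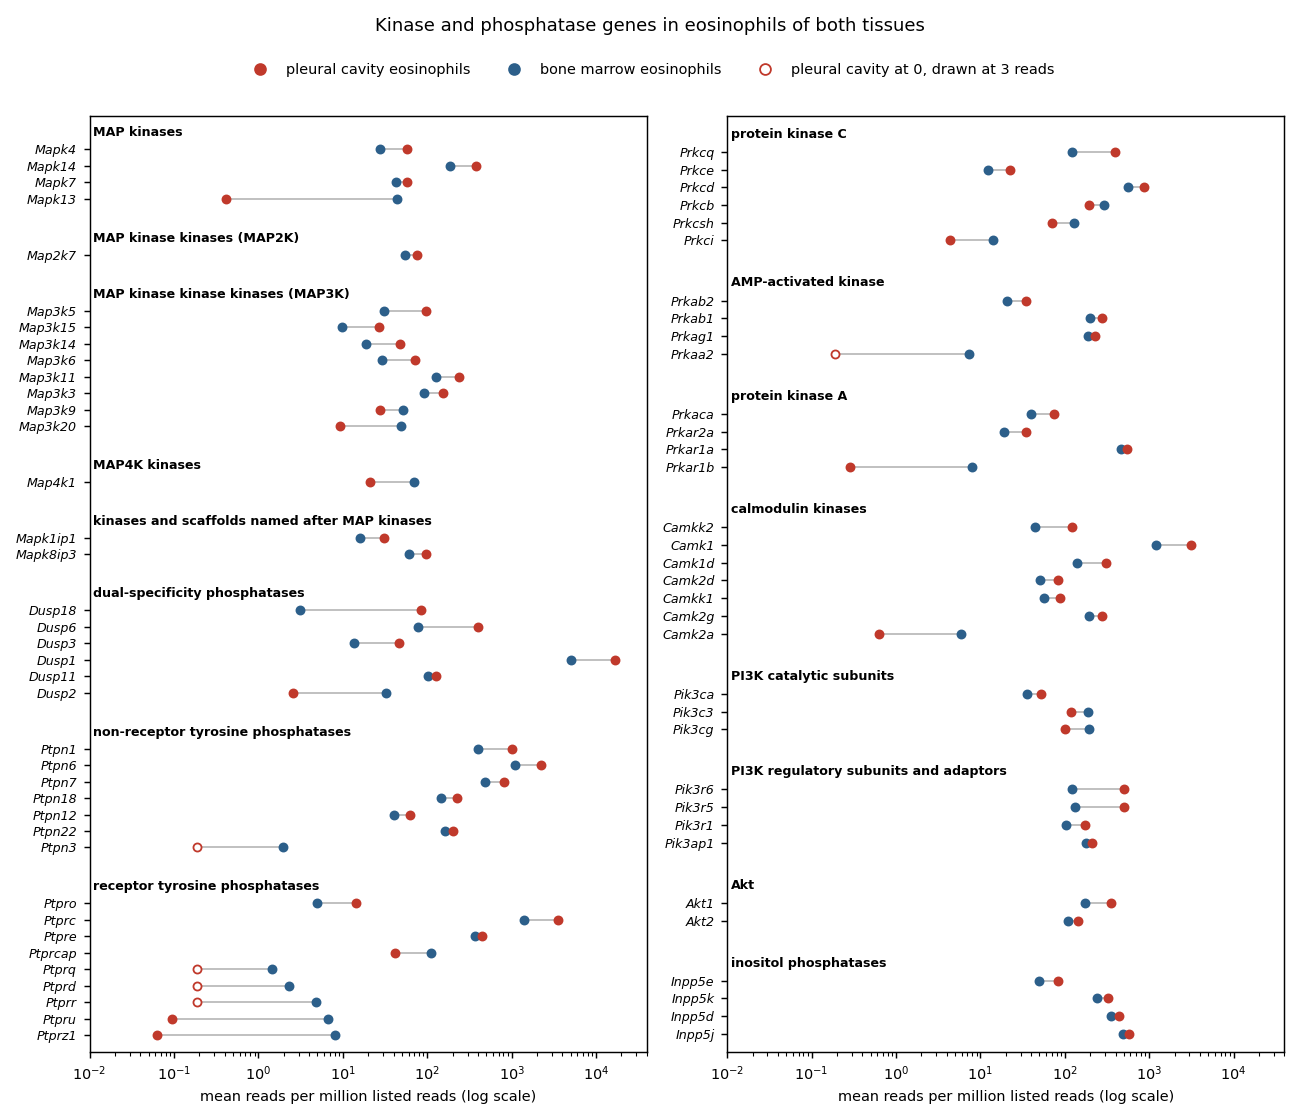
Level of the members reported here in RPM, on a log axis, in pleural cavity (red) and bone marrow (blue) eosinophils, grouped by class and ordered by ratio. Open circles mark the 5 members with 0 mean reads in the pleural cavity, drawn at 3 reads. Each point is the authors' mean of 2 libraries, and red lies to the right of blue for most members.

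Of the dual-specificity phosphatases, 5 of the 6 listed were higher in pleural cavity eosinophils, 4 of them by over 2-fold. Dusp1, also known as MKP-1, switches off p38, JNK and ERK in the nucleus and is an immediate early gene. Its mean was 269575 reads in the pleural cavity and 58829 in bone marrow, which is 16904 and 5001 RPM and a log2 ratio of 1.76. Per kilobase it was the most abundant member in both tissues, at 7308 and 2162 RPM per kilobase. Exons of Dusp1 overlap those of Ergic1 on the other strand. Dusp6 or MKP-3, a cytoplasmic phosphatase selective for ERK, had 6347.5 and 908 mean reads and a log2 ratio of 2.37. Dusp18 had the largest positive ratio of all members, with 1343 against 37 mean reads, a log2 ratio of 4.74 with a counting interval from 4.41 to 5.10. Dusp3, a small phosphatase of ERK and JNK, had 737.5 and 158 mean reads and a log2 ratio of 1.78. Dusp2 or PAC-1, a nuclear phosphatase of ERK and p38 that activated leukocytes induce, went the other way, with 40.5 mean reads in pleural cavity against 381 in bone marrow eosinophils and a log2 ratio of -3.67. Dusp11, which acts on RNA and not on MAP kinases, had a log2 ratio of 0.32.

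The stretches before the transcription start of Dusp1, Dusp6, Dusp2 and Mapk13 are shown because Dusp1 is the most abundant member, Dusp6 and Dusp2 are MAP kinase phosphatases with large ratios of opposite sign, and Mapk13 has the largest negative ratio among members with at least 100 mean reads in a tissue. They come from RefSeq on GRCm38.p6, read 5′ to 3′ on the strand of the gene, and bases that another annotated transcript holds as exon were left off. The stretch of Dusp1 is chr17:26508520-26508722 on the minus strand, that of Dusp6 chr10:99262981-99263230, that of Dusp2 chr2:127335909-127336158 and that of Mapk13 chr17:28769067-28769296, the last 3 on the plus strand. Capitals mark matches on either strand to the cAMP response element TGACGTCA, the AP-1 site TGANTCA, the CCAAT box, the TATA box with the letters TATAAA, the GC box with the letters GGGCGG and the GATA site with the letters AGATAA.
Dusp1: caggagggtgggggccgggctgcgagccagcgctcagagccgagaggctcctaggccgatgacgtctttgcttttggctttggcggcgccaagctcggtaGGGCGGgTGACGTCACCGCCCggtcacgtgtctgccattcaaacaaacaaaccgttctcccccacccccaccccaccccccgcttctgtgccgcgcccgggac
Dusp6: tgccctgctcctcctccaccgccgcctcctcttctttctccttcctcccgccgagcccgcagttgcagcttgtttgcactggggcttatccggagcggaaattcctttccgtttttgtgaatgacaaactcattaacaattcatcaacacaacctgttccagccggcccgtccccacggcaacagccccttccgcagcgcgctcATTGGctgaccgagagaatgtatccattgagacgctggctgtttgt
Dusp2: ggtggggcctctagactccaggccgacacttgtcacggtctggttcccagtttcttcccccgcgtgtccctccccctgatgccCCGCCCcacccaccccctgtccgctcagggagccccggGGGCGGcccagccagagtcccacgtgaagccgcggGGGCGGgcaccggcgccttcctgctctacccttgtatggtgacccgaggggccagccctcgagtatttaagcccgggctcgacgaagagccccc
Mapk13: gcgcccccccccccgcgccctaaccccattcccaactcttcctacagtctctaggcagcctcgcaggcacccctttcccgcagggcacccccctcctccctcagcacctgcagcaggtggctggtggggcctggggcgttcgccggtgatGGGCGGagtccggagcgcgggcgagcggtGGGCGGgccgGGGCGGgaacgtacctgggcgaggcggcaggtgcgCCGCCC

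Dusp1 held a full cAMP response element, which lay 143 bases before the start and abutted a GC box at 135 bases. In the 250 bases before the start, 1.62% of 27025 RefSeq promoters held that element, and so did 2 of the 59 member promoters that matched by gene ID, Dusp1 and Ptpru. Dusp1 and Ptpru had ratios of opposite sign. Dusp2 and Mapk13 held 3 and 4 GC boxes and none of the other motifs, and Dusp6 held a CCAAT box 46 bases before the start. GC boxes stood in 37 of the 59 member promoters and in 32.9% of all promoters. AP-1 and GATA sites were each found in 1 member promoter, beside 6.87% and 10.3% of all promoters, TATA boxes in 2 beside 13.0%, and CCAAT boxes in 16 beside 34.5%. These matches are letters in a window and were not tied to the levels.

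Among the MAP kinases themselves 4 genes were listed. Mapk14, which encodes p38 alpha, had a mean of 6097.5 reads in the pleural cavity against 2189.5 in bone marrow, a log2 ratio of 1.04. Mapk13, which encodes p38 delta, had 6.5 against 514 mean reads. Its log2 ratio was -6.74, with a counting interval from -7.66 to -5.96, the largest negative ratio among members with at least 100 mean reads in a tissue. The genes are neighbours on chromosome 17, Mapk14 from 28691329 to 28748406 and Mapk13 from 28769297 to 28780233, 20.9 kb apart on the plus strand. Per kilobase, Mapk14 stood 3.48-fold over Mapk13 in bone marrow and 767-fold over it in pleural cavity eosinophils, or 2.08-fold and 457-fold with the median transcript length. Mapk4, the atypical kinase ERK4, had a log2 ratio of 1.05 on 914 and 325.5 mean reads. Mapk7, which encodes ERK5, had a log2 ratio of 0.46 on 921 and 495 mean reads. The ERK gene Mapk3 and the JNK genes Mapk8, Mapk9 and Mapk10 were not listed and have no direction here.

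Upstream of the MAP kinases, 6 of 8 listed MAP3K genes were higher in pleural cavity eosinophils. Map3k5, the stress kinase ASK1 that feeds JNK and p38, had the largest ratio of them, with 1540 and 363 mean reads and a log2 ratio of 1.65. Its relatives Map3k6 (ASK2) and Map3k15 (ASK3) were higher as well, by log2 ratios of 1.31 and 1.46, on 1140 against 338 and 423.4 against 113.5 mean reads, and both had fractional reads, as 13 members did beside 25.8% of listed genes. Exons of Map3k15 overlap those of Pdha1 on the other strand. Map3k14, the NF-kB-inducing kinase of the non-canonical pathway, had 753.5 and 221.5 mean reads and a log2 ratio of 1.33. Map3k11 or MLK3, the MAP3K with the highest level per kilobase in both tissues, had 3794.5 and 1477 mean reads and a log2 ratio of 0.92, and Map3k3 (MEKK3) had 0.73. The lower genes were Map3k20, the kinase ZAK that senses stalled ribosomes, with 146 against 575 mean reads and a log2 ratio of -2.42, and Map3k9 (MLK1), at -0.90.

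A single MAP2K was listed. It was Map2k7, a JNK activator, with 1193.5 and 637.5 mean reads and a log2 ratio of 0.47. Map4k1, the haematopoietic kinase HPK1 that restrains antigen receptor signalling, was lower in pleural cavity eosinophils, with 331 against 830 mean reads and a log2 ratio of -1.77. The JNK scaffold gene Mapk8ip3 and the gene Mapk1ip1 had log2 ratios of 0.66 and 0.95.

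Of the non-receptor tyrosine phosphatases, 6 of 7 listed genes were higher. Ptpn6 encodes SHP-1, which is recruited by inhibitory receptors and dampens Src family kinases. Its mean was 35508.5 reads in the pleural cavity and 12762 in bone marrow, a log2 ratio of 1.04, and it was the third most abundant member per kilobase in both tissues. Ptpn1, which encodes PTP1B and acts on JAK kinases and growth factor receptors, had 16259 and 4640.5 mean reads and a log2 ratio of 1.37. Ptpn7 (HePTP), a phosphatase that binds ERK and p38, had 12861 and 5641 mean reads, which were fractional, and a log2 ratio of 0.75. Ptpn18 and Ptpn12, both of the PEST group that acts on Src targets, had log2 ratios of 0.64 and 0.62, and Ptpn22, of the same group, had 0.32. Ptpn3 rested on 0 against 23 mean reads and was at least 10.4-fold lower when 3 reads per library are taken as the floor.

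Among the genes put by symbol in the class of receptor tyrosine phosphatases, the abundant ones were higher, apart from Ptprcap. The scarce ones were lower, apart from Ptpro. Ptprc, which encodes CD45 and activates Src family kinases by removing their inhibitory phosphate, had 56997.5 and 16478 mean reads and a log2 ratio of 1.35. CD45 was part of the bone marrow gate and of the pleural cavity enrichment. Ptprcap, whose product binds CD45, differed the other way, with 657.5 against 1319 mean reads and a log2 ratio of -1.44, so that per kilobase Ptprc stood 2.35-fold over Ptprcap in bone marrow and 16.3-fold over it in pleural cavity eosinophils, or 3.91-fold and 27.1-fold with the median transcript length. Exons of Ptprcap overlap those of Coro1b and Rps6kb2. Ptpre, with 7125.5 and 4319 mean reads, had a log2 ratio of 0.28, and Ptpro, with 228.5 and 58.5 mean reads, had 1.53. The 5 others are best known from neurons and epithelia and had from 17 to 96 mean reads in bone marrow and at most 1.5 in pleural cavity eosinophils. Ptprr, Ptprd and Ptprq were at 0 in the pleural cavity, at least 25.3-fold, 12.2-fold and 7.68-fold lower against the floor. Ptprz1 and Ptpru had log2 ratios of -7.02, with a counting interval from -10.1 to -5.15, and -6.14, from -8.43 to -4.57. All 9 members under 100 mean reads in both tissues were lower, and among all listed genes under 10 RPM 9.75% were higher, so a lower value at such read numbers is the rule in this table.

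Pik3cg encodes p110 gamma, the PI3K catalytic subunit that G-protein-coupled receptors such as chemokine receptors engage in leukocytes. Its mean was 1591 reads in the pleural cavity and 2305 in bone marrow, which is 99.8 and 196 RPM and a log2 ratio of -0.97. The genes of its regulatory subunits had ratios of the other sign. Pik3r5 (p101) had 7997.5 and 1546 mean reads and a log2 ratio of 1.93. Pik3r6 (p84) had 8060 and 1447 mean reads and a log2 ratio of 2.04. Both genes lie on the plus strand of chromosome 11, Pik3r5 from 68432121 to 68497849 and Pik3r6 from 68503019 to 68552698, with 5.2 kb between them. Per kilobase the level of Pik3r5 was 0.901 times that of Pik3cg in bone marrow and 6.75 times in pleural cavity eosinophils, and that of Pik3r6 1.14 and 9.19 times. With the median in place of the longest transcript length these ratios were 1.71 and 12.9 for Pik3r5 and 0.895 and 7.23 for Pik3r6. In the pleural cavity both genes thus stood above Pik3cg with either length, whereas in bone marrow this depends on the length taken. The order of Pik3r5 and Pik3r6 between themselves depends on the length in both tissues.

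Class IA PI3K showed smaller differences. Pik3ca, which encodes p110 alpha, had 840 and 420 mean reads and a log2 ratio of 0.56, and Pik3r1, which encodes its regulatory subunit p85 alpha, had 2804 and 1217.5 mean reads and a log2 ratio of 0.76. Pik3cd, which encodes p110 delta, was not listed. Pik3c3, the class III enzyme VPS34 of autophagy and endosomes, had 1912 and 2204 mean reads and a log2 ratio of -0.64. The adaptor gene Pik3ap1 (BCAP) had a log2 ratio of 0.23. Downstream, Akt1 had 5612.5 and 2040.5 mean reads and a log2 ratio of 1.02, and Akt2 had 2289.5 and 1291.5 mean reads and a log2 ratio of 0.39. The inositol 5-phosphatases, which take phosphate from the PI3K product or related lipids, were all 4 higher but by little. Inpp5d, which encodes SHIP1, had 6979.5 and 4108.5 mean reads and a log2 ratio of 0.33, Inpp5j had 0.22, Inpp5k 0.41 and Inpp5e 0.74. The sign of Inpp5d, Inpp5j, Pik3ap1, Ptpre, Ptpn22 and Dusp11 turned when the total left out the cell type marker genes.

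**Figure D3:**
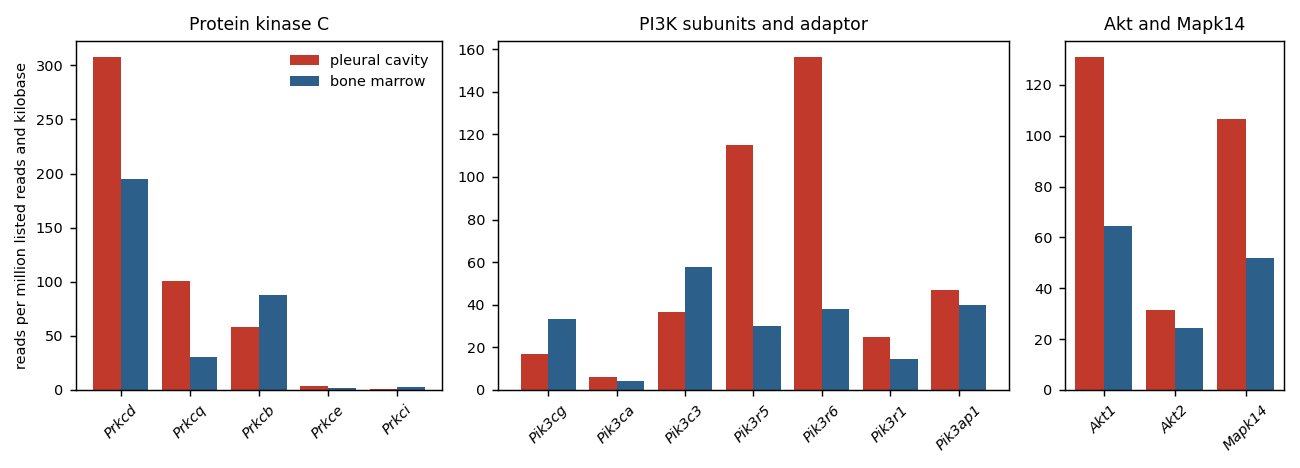
Levels per kilobase of the longest transcript, in RPM, of protein kinase C isozymes reported here, the PI3K subunits with the adaptor gene Pik3ap1, and Akt1, Akt2 and Mapk14, as the authors' mean in pleural cavity (red) and bone marrow (blue) eosinophils. Pik3r5 and Pik3r6 stand at 115 and 156 in the pleural cavity and at 30.1 and 38.0 in bone marrow, whereas Pik3cg stands at 17.0 and 33.4.

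Of the 6 listed protein kinase C isozymes, 4 stood higher in the pleural cavity and 2 lower. Prkcd, the diacylglycerol-dependent isozyme delta, was the most abundant in both tissues, with 13975 and 6548.5 mean reads and a log2 ratio of 0.65. Prkcq encodes isozyme theta, best known for its place at the T cell synapse. Its mean was 6344.5 reads in the pleural cavity and 1426.5 in bone marrow, with a log2 ratio of 1.71. Of the T cell markers Cd3d had 32 and 123 mean reads, and Cd3e and Trac were not listed and have no value here. The part of T cells in the reads of Prkcq was not tested. Prkcb, the calcium-dependent isozyme beta, had 3069.5 and 3419.5 mean reads and a log2 ratio of -0.59. Of the summed level of the 6 isozymes per kilobase, Prkcq thus made 21.1% in the pleural cavity and 9.55% in bone marrow, Prkcb 12.2% and 27.3%, and Prkcd 64.7% and 61.0%. Prkce had a log2 ratio of 0.84, and the atypical isozyme gene Prkci had -1.71 on 69 and 167 mean reads. Prkcsh bears a similar symbol but encodes a subunit of glucosidase II in the endoplasmic reticulum, and it had a log2 ratio of -0.88.

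Of the cAMP-dependent kinase genes Prkar1a, the regulatory subunit RI alpha, had the highest level per kilobase in both tissues, with 8708.5 and 5479.5 mean reads and a log2 ratio of 0.23. The catalytic subunit gene Prkaca had 1196.5 and 473.5 mean reads and a log2 ratio of 0.90, and the regulatory subunit gene Prkar2a had 0.89. Prkar1b, a regulatory subunit known from brain, had 4.5 against 93.6 mean reads and a log2 ratio of -4.82 with a counting interval from -5.97 to -3.86. AMP-activated kinase, a sensor of low energy, is built from an alpha, a beta and a gamma subunit. Its genes Prkab1, Prkab2 and Prkag1 had log2 ratios of 0.47, 0.76 and 0.28, on 244 to 4344 mean reads. Prkaa2, one of the catalytic alpha subunits, had a mean of 0 reads in the pleural cavity and 86 in bone marrow, at least 38.9-fold lower against the floor, and the other alpha subunit gene Prkaa1 was not listed. The signs of Prkar1a and Prkag1 turned when the total left out the cell type marker genes.

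Of the 7 listed calmodulin-dependent kinase genes 6 were higher in pleural cavity eosinophils. Camk1 was the second most abundant member per kilobase in both tissues, at 1302 and 498 RPM per kilobase, with 49801 and 14060 mean reads and a log2 ratio of 1.39. With the median transcript length Camk1 and Ptpn6 exchanged ranks, whereas Dusp1 stayed first. The reads of Camk1 were fractional, and its exons overlap those of Ogg1 on the other strand. Camk1d had 4866 and 1660.5 mean reads and a log2 ratio of 1.11. The kinases that activate CaMKI, Camkk2 and Camkk1, had log2 ratios of 1.47 and 0.63, on 1963.5 against 522.5 and 1392 against 665.5 mean reads. Camk2d and Camk2g, subunits of CaMKII, had 0.74 and 0.50. Camk2a, the subunit typical of neurons, had 10 against 70 mean reads and a log2 ratio of -3.25 with a counting interval from -4.00 to -2.56. Calm2, a gene that encodes calmodulin itself, had a log2 ratio of 1.37.

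**Figure D4:**
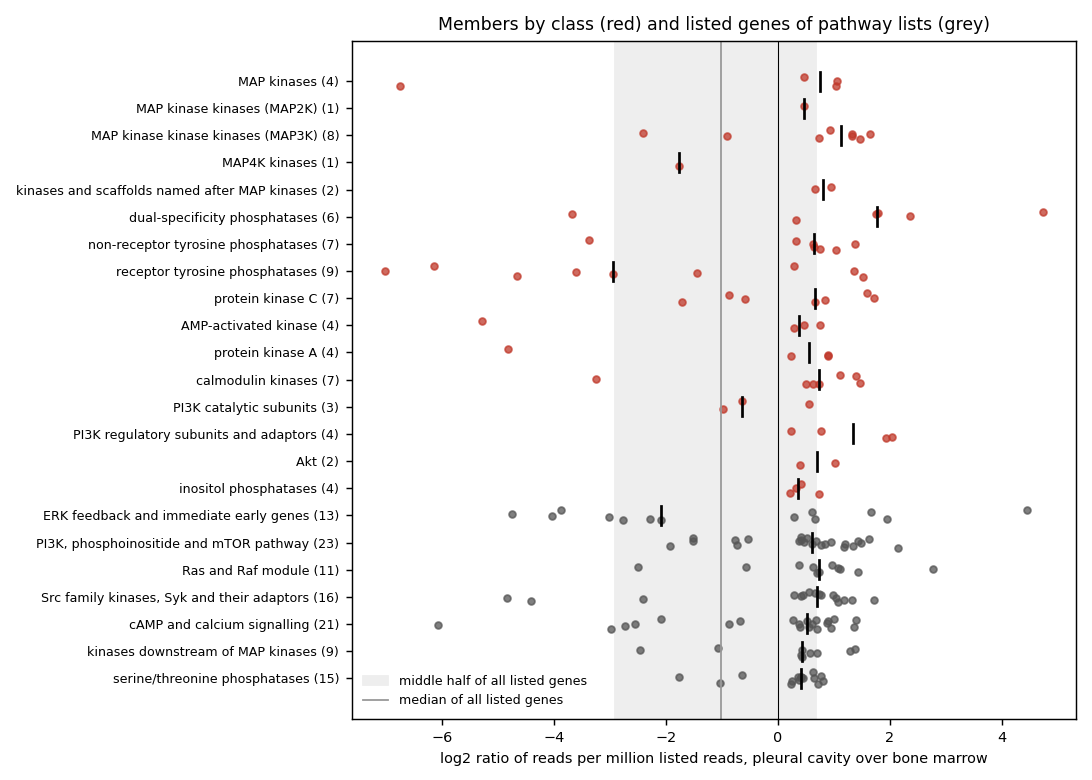
Log2 ratio of pleural cavity over bone marrow eosinophils for the members of each class (red points) and for listed genes of 7 lists of related pathways (grey points), with the number of genes in brackets and a black bar at the median. The grey band is the middle part, between the quartiles, of all listed genes and the grey line their median of -1.02, and the class medians reach from -2.94 for the receptor tyrosine phosphatases to 1.77 for the dual-specificity phosphatases.

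Other genes of the same pathways were read from 7 lists of 253 genes, of which 108 were listed, 78 higher and 30 lower, beside 42.5% higher among all listed genes. By over 2-fold 24 were higher and 23 lower, beside 16.0% and 50.5% of all listed genes. The counts were 13 and 27 when the total left out the cell type marker genes, beside 10.1% and 56.2% of all listed genes. Read level bears on this comparison too. Most of these pathway genes had a mean of over 100 reads in each tissue. Among listed genes with at least 100 in each, 60.9% were higher, and 18.0% and 27.8% were higher and lower by over 2-fold. Of the Ras and Raf module 9 of 11 listed genes were higher, among them the small GTPase gene Rap1b, at a log2 ratio of 1.43. The Ras inhibitor gene Rasa2 had -2.50. Of the Src family kinases, Syk and their adaptors 13 of 16 were higher. Csk, which inhibits the Src family, had 4749 and 1548 mean reads and a log2 ratio of 1.18, and Syk had 1.04. Pag1, which anchors Csk at the membrane, had -2.41.

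Of the PI3K, phosphoinositide and mTOR list 17 of 23 genes were higher. Sgk1, a kinase related to Akt, had 5782 and 1389.5 mean reads and a log2 ratio of 1.62, and Plcg2, a phospholipase that gives rise to calcium signals, had 1.19. The genes of ERK feedback and the immediate early response went both ways, 6 of 13 higher and 7 lower, with a median log2 ratio of -2.08. Egr1 and Egr2, transcription factors that ERK induces, had log2 ratios of 1.65 and 4.45, on 31472 against 7375 and 2875.5 against 97 mean reads. Genes of AP-1 went both ways, with Fosb at -4.03 and Jun at -2.08, on 253 against 3049 and 2685.5 against 8386.5 mean reads, and the more abundant Junb at 0.29 on 29876.5 against 17984.5. The sign of Junb turns when the total leaves out the cell type marker genes, a shift of -0.34. Myc had -3.87. The feedback inhibitors Spry2 and Spred2 had -3.02 and -2.77, whereas Dusp6, which is also induced by ERK, had 2.37.

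Of the cAMP and calcium list 14 of 21 genes were higher, with Rapgef3, the cAMP sensor EPAC1, lowest at -6.07 on 2.5 and 123.5 mean reads. Of the kinases downstream of MAP kinases and their partners 7 of 9 were higher, among them Mknk2, which phosphorylates a translation factor, with 5668 and 1708.5 mean reads and a log2 ratio of 1.29. Of the serine/threonine phosphatases 12 of 15 were higher, none of them by over 2-fold, and 2 were lower by over 2-fold, Ppm1f at -1.77 and Ppp1cc at -1.04.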

How the data were processed

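Eosinophils of 2 tissues were analysed, with 2 libraries each. Per the labels and the methods, the authors filtered raw reads in SOAPnuke, used HISAT2 2.1.0 for alignment to GRCm38 and Bowtie2 2.2.5 for mapping to genes, estimated expected counts with RSEM 1.2.8, averaged them per tissue and compared the tissues with DESeq2; StringTie 1.0.4 is also named, without a role. The deposited expected counts are these means, unscaled. The 3 columns of the authors' comparison (log2 ratio, P and Q) were not used, and no column of single-library values was present. Depth per library and strandedness are not given in the sources used here.

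Means were scaled to the total of the listed genes, and a mean of 0 was set to 3 reads per library. Transcript lengths and positions came from GENCODE M21 on GRCm38, an earlier release than the authors', and all 73 members matched. Exons of 26 members overlap those of another gene, and 13 members had fractional reads, which RSEM gives to reads shared between similar genes. Intervals were exact binomial ones on the mean times 2 libraries. The calculation of the ratio was checked on simulated reads with known ratios, which is no test between the tissues. Members, classes and lists were chosen with earlier results of these data known. The rule named, per class, up to 4 members in each direction by ratio among those with at least 100 mean reads in a tissue, the member with the most reads in each tissue, and up to 3 with at most 3 reads as bounds, and up to 4 genes in each direction per pathway list. Values of the remaining members, and those of Jun, Junb and Spred2, were added after they were seen. A few genes are not reported here. Alternatives covered scaling, fold, reads, lengths and a pseudocount. Python 3.11.15, pandas 2.3.3, scipy 1.17.1, R 4.3.3 and edgeR (TMM) were used.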

Additional observations from a re-analysis of the deposited data

How the results depend on the processing

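No paired analysis was possible because the table holds 1 mean per tissue, and for the same reason no replicate could be left out. Against the total of the listed genes, log2 ratios moved by 0.44 without scaling, by 0.19 with TMM, by -0.08 without the 10 genes with the most reads and by -0.34 without the cell type marker genes, an alternative chosen after seeing the data. In each of the first 3 settings 53 of the 73 members stayed higher, and in the last 45. Of all listed genes 42.5% were higher in each of the first 3 and 39.9% in the last. There the log2 ratios turned for Dusp11 (-0.0176), Ptpn22 (-0.0225), Inpp5d (-0.0148), Ptpre (-0.0570), Prkag1 (-0.0570), Prkar1a (-0.11), Pik3ap1 (-0.11) and Inpp5j (-0.12). Members higher by over 2-fold numbered 38 without scaling and 3 at over 4-fold, in place of 22. Members lower by over 2-fold numbered 6 with at least 100 mean reads in one tissue, 6 with at least 10 in both and 3 with at least 100 in both (chosen after seeing the data), in place of 15. Pathway genes higher by over 2-fold numbered 52 without scaling and 13 without the marker genes, in place of 24. Of all listed genes 30.5% were higher by over 2-fold without scaling and 10.1% without the marker genes, in place of 16.0%. The median log2 ratio of the members, 0.63, was 1.06 without scaling, 0.81 with TMM and 0.29 without the marker genes. With the median transcript length the share of Dusp1 in the members' level per kilobase was 36.2% in place of 53.9% in the pleural cavity and 23.8% in place of 38.3% in bone marrow, and that of Prkcd among the isozymes 57.3% in place of 64.7% and 52.2% in place of 61.0%. With 1 mean per tissue, no replicate spread limits or backs any of these ratios, and ratios on few reads are imprecise.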
